A study of Mus musculus with 4 samples.

Results

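A set of 10 genes of vessel growth were followed through mouse sarcomas at the level of single cells: the vascular endothelial growth factor (VEGF) ligands Vegfa, Vegfb, Vegfc and Pgf, their receptors Kdr and Flt1 and co-receptor Nrp1, the angiopoietin Angpt2 and its receptor Tek, and the secreted factor Angptl4. The genes were taken by symbol, and 10 of 10 were present in both deposited tables, among the 18220 genes of either table. Hind limb sarcomas, which the series describes as an allograft model, were profiled in 4 mice by droplet sequencing of RNA 3′ ends, with unique molecular identifiers (UMIs) that count RNA molecules. All tumors carried the genotype label KrasLSL-G12D/+;Trp53flox/flox on the 129/SvJae background strain. Vehicle (PBS) or digoxin, a cardiac glycoside that inhibits the sodium-potassium pump, was injected intraperitoneally, the latter at 2 mg/kg, every 24 h for 4 doses. Each group held 2 mice, each mouse gave 1 library, and the labels give neither the age nor the sex of the hosts. What activated the conditional alleles, and whether the grafts came from 1 tumor line, is not given in the sources used here.

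VEGF ligands are secreted by tumor cells, macrophages and stroma, often in response to low oxygen, and bind receptor tyrosine kinases on endothelial cells. Kdr (VEGFR2) carries most of the growth signal, Flt1 (VEGFR1) binds Vegfa tightly but signals weakly, and Nrp1 presents the ligand to Kdr. Angpt2 is released by activated endothelium and modulates Tek (Tie2), while Angptl4 is an inhibitor of lipoprotein lipase that is induced by low oxygen and by fatty acids and affects vessel permeability.

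RefSeq promoter windows of the GRCm38.p6 assembly, the 250 bases before each transcript start, were on hand for 8 of the 10 genes. Entries for Angpt2 and Angptl4 were not used here. The core letters bound by hypoxia-inducible factors, ACGTG or GCGTG on either strand, occurred at least once in 6 of the 10 windows of these 8 genes, and in 38.6% of all 32851 promoter windows of that length. A match describes the letters only. The windows of the ligand Vegfa and of its 2 receptor kinases are shown because the levels below turn on which cells make the ligand and which carry the receptors. They read 5′ to 3′ along the gene, on the minus strand, with core letters in capitals.
Vegfa, upstream start, chr17:46032378-46032627: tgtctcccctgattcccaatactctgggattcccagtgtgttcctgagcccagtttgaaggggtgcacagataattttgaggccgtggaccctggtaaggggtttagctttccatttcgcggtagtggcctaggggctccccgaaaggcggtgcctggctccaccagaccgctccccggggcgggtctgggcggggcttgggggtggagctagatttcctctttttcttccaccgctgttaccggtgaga
Kdr, chr5:75978456-75978705: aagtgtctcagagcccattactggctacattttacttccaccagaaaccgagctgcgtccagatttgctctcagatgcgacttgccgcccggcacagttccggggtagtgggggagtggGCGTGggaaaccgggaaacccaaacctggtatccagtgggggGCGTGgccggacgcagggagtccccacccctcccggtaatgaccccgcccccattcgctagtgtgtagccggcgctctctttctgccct
Flt1, chr5:147726012-147726261: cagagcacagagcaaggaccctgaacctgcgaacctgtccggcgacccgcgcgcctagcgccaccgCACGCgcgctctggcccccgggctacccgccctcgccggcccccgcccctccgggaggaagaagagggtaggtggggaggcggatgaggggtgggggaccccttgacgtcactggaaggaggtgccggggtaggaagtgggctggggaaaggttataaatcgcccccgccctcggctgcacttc
The Vegfa window holds 0 matches, that of Kdr 2 and that of Flt1 1. A second RefSeq start of Vegfa, inside the gene, has 2 matches in its window.

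The deposited annotation divides the cells into 18963 malignant and 12648 non-malignant cells. Malignant cells of the 4 mice had medians of 46799 to 57658 UMIs, and non-malignant cells of 15837 to 16671. The 30 cells named Unknown, all of vehicle replicate 2, are left out of the order of types. Of 31498 barcodes, 113 occurred in 2 or more libraries. Levels are given as mean CPM: the UMIs of a gene over all UMIs of its cell, scaled to a common total and averaged over the cells of a mouse. Vehicle replicate 2 stood apart. Its non-malignant cells carried the X-inactivation transcript Xist at a mean CPM of 6.09 against 722 to 817 in the other mice, and the Y-linked gene Ddx3y at 86.0 against 1.72 to 2.14. By these 2 transcripts its host was male and the other hosts were female. Sex therefore differed within the vehicle group and not within the digoxin group. The part of host sex in the differences below was not tested. Vehicle replicate 2 also held 152 of the cells named Osteoclasts, against 28 to 47 elsewhere.  Types were defined by the authors from the same cells, so their levels are described without a test.

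The deposited name Epithelial did not match its markers. Cells named Microglia carried the markers of another type, and of the microglia markers mainly Siglech. Cells named Epithelial, 80 to 98 in each mouse, had all 10 endothelial markers at 20 CPM or more, among them Cdh5 and Pecam1, with a summed level of 6846 to 7699 CPM. Their 5 epithelial markers summed to between 7.17 and 21.4 CPM. UMIs of at least 3 of 7 pericyte and smooth muscle markers were found in 12.2% to 17.4% of the cells named Epithelial. These cells are called the Epithelial-named, endothelial-marker cells here. Cells named Microglia carried 5 of 5 plasmacytoid dendritic markers at 20 CPM or more, summed to between 7175 and 7635 CPM. The 4 microglia markers in the table summed to between 2225 and 2614 CPM, above every other population. Of that sum Siglech, which is in both lists, made up 2178 to 2592 CPM, P2ry12 lay at 14.5 to 31.9, Cx3cr1 at 2.68 to 18.8 and Tmem119 at 0 to 2.75.

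**Figure D1:**
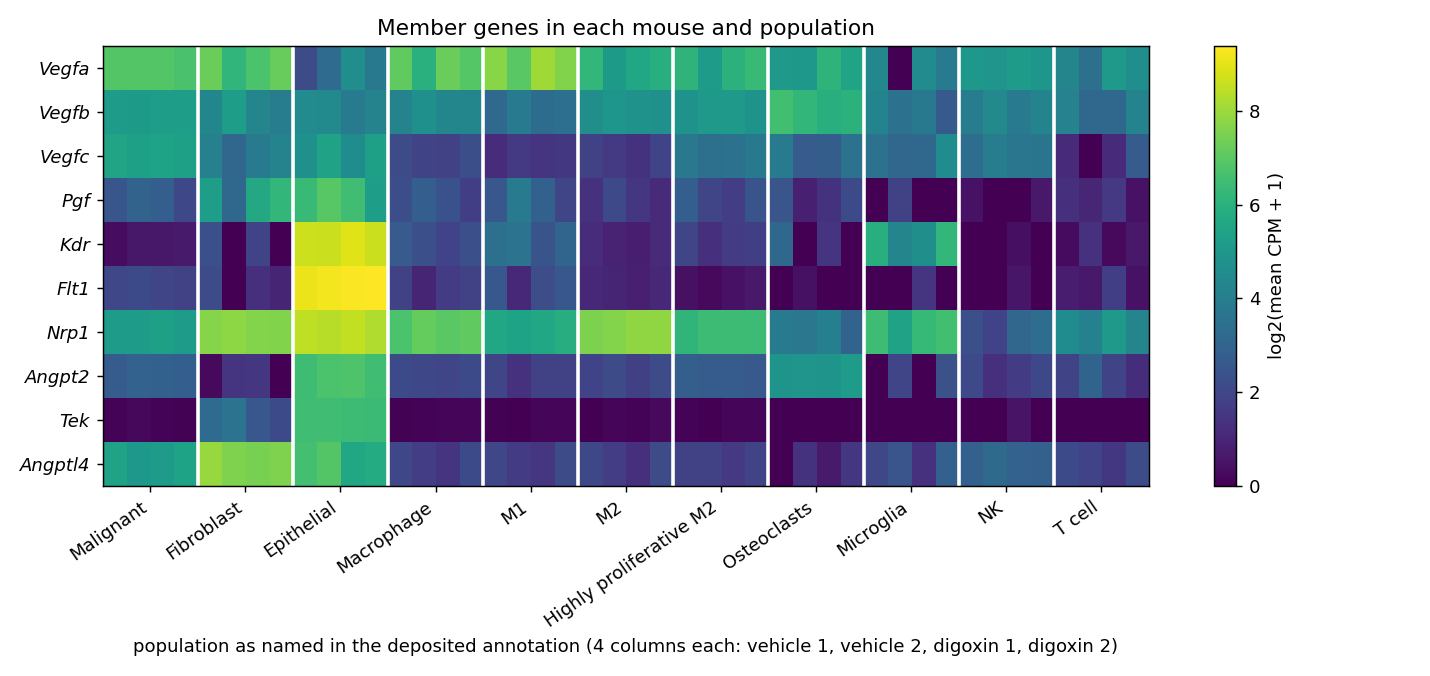
Color gives log2(mean CPM + 1) of each of the 10 genes (rows) in each mouse (4 columns per population, vehicle 1, vehicle 2, digoxin 1 and digoxin 2), without the scarcer neutrophils, B cells and dendritic cells. Kdr, Flt1 and Tek are brightest in the Epithelial-named cells of all 4 mice, and of the populations drawn Vegfa reaches its highest value, 265 CPM, in M1 macrophages.

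Vegfa, on chr17:46016993-46032369, was made by several cell types at once. Malignant cells carried 116, 116, 116 and 102 mean CPM in vehicle replicates 1 and 2 and digoxin replicates 1 and 2. Macrophages had 135, 60.8, 153 and 120, and fibroblasts 155, 72.1, 106 and 147. Malignant cells varied little between mice, whereas vehicle replicate 2 was the lowest mouse in both host types. Neutrophils ranked first with 295, 363, 112 and 110, on 11, 5, 34 and 23 cells. The cells of that name carried 5 of 5 neutrophil markers, summed to 29858, 7327, 121328 and 24668 CPM, but also 7 of 7 macrophage markers, summed to 15014, 13273, 12364 and 17631 CPM against 19332 to 28552 in macrophages. Lyz2, which both cell types express, made up 9985 to 13780 CPM of the latter sum, and the part of macrophage RNA in the neutrophil level of Vegfa was not tested. These Vegfa values overlapped those of fibroblasts, and the first neighbours in the order without overlap were malignant cells and the cells named Osteoclasts. The latter had 31.5 to 67.2 CPM, a range that still overlapped that of macrophages. The 3 lowest means were those of the Epithelial-named cells, at 3.51 to 23.3 CPM, of B cells, at 0 to 21.6, and of dendritic cells, at 3.49 to 14.8, and these overlapped each other. Malignant cells, the most numerous and deepest, held 81.1% to 93.7% of the Vegfa UMIs in a mouse, and macrophages 5.4% to 17.4%. UMIs of under 3 of 7 macrophage markers were found in 2115 of 4507, 3007 of 6269, 1961 of 4211 and 1491 of 3976 malignant cells. The others carried at least 3, and the part of macrophage RNA in the malignant levels and UMI shares was not tested.

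Within the macrophages, Vegfa followed the deposited sub-clusters. M1 cells carried 212, 127, 265 and 193 CPM in the order above, and M2 cells 73.7, 33.4, 47.3 and 59.6. The M1 level was therefore 2.87 to 5.62 times the M2 level in each of the 4 mice. Highly proliferative M2 cells had 35.5 to 81.4 CPM and overlapped the M2 range. A Vegfa UMI was found in 50.1%, 29.0%, 50.3% and 50.7% of all macrophages, and after each cell was thinned to 5000 UMIs, which left out 12 to 20 shallower macrophages per mouse, in 31.4%, 16.4%, 33.1% and 31.5%. T cells, at a median of 7244 to 8232 UMIs per cell against 16070 to 17049 in macrophages, had one in 4.55% to 18.1% of cells. Vehicle replicate 2 also had the fewest M1 cells, 712 against 1095 to 1307. Its Vegfa was also the lowest in the share of cells after thinning, and in the level of each of the 3 sub-clusters. The cause was not tested.

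The other ligands had different leading cell types. Vegfb, on chr19:6982473-6987651, which binds Flt1 and not Kdr, was highest in the cells named Osteoclasts, at 92.6, 73.1, 59.3 and 65.5 CPM, with malignant cells next at 34.2 to 37.3. Those ranges did not overlap. In macrophages it ran against Vegfa, with the M2 level 2.14 to 3.0 times the M1 level in every mouse. Vegfc, on chr8:54077606-54187096, the lymphatic ligand that acts through Flt4 and Kdr, was highest in malignant cells, at 43.4, 39.2, 42.3 and 39.8 CPM, followed by the Epithelial-named cells at 22.7 to 41.4, whose range overlapped. Malignant cells held 96.3% to 97.9% of its UMIs. Pgf, on chr12:85166635-85177790, a ligand of Flt1, was highest in the Epithelial-named cells, at 81.5, 123, 90.3 and 37.8 CPM. Fibroblasts followed with 37.9, 7.88, 50.2 and 73.2, overlapping them, and no other type exceeded 16.2. Pgf was found in few of the Epithelial-named cells, with a UMI in 22.9% to 32.7%.

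The receptor kinases were highest in the Epithelial-named, endothelial-marker cells. Kdr, on chr5:75932827-75978458, stood there at 407, 402, 485 and 401 CPM, and Flt1, on chr5:147561604-147726011, at 549, 604, 641 and 672. All 4 mice were alike for Kdr apart from the higher digoxin replicate 1. A Kdr UMI was present in 83.8% to 88.8% of these cells, at a median of 17484 to 21101 UMIs per cell. T cells, which should lack the gene, had one in 0.546% to 1.82% of cells, and malignant cells in 0.712% to 1.48%. The second Kdr level was that of the Microglia-named cells, at 58.2, 18.5, 24.8 and 73.3 CPM, resting on 72 UMIs in all. Their endothelial markers summed to between 174 and 216 CPM. M1 macrophages had 4.48 to 11 CPM of Kdr and M2 macrophages 0.717 to 1.26, so the M1 level was 6.10 to 12.2 times the M2 level. That M2 level lay within the range of T cells, 0.186 to 1.55 CPM, so the ratio is taken against a level not told apart from background. Flt1 was at or below 14.9 CPM in every other type, and its malignant level was 2.56 to 3.27. Malignant cells still held 30.7% to 45.8% of the Flt1 UMIs. Epithelial-named cells held 52.9% to 64.8% of them, and 71.6% to 79.3% of the Kdr UMIs.

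Nrp1, on chr8:128358604-128503363, was the receptor gene with the broadest range. It stood at 355, 335, 369 and 311 CPM in the Epithelial-named cells, at 196 to 224 in fibroblasts and at 105 to 145 in macrophages. These 3 ranges did not overlap one another. Malignant cells followed further down at 35.3, 35.3, 39.8 and 35.9. NK cells had the lowest mean, at 2.66 to 9.20, and overlapped dendritic cells at 0 to 11.9. Malignant cells held 51.1% to 63.2% of the Nrp1 UMIs in a mouse, and macrophages 27.6% to 42.4%. Inside the macrophages Nrp1 ran opposite to Vegfa, since its M2 level, 185 to 227 CPM, was 3.89 to 4.72 times its M1 level, 42.9 to 56.5. A UMI of Nrp1 was present in 79.7% to 85.1% of M2 cells and in 31.0% to 35.7% of M1 cells, and after thinning in 53.6% to 60.9% and 17.2% to 19.8%.

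**Figure D2:**
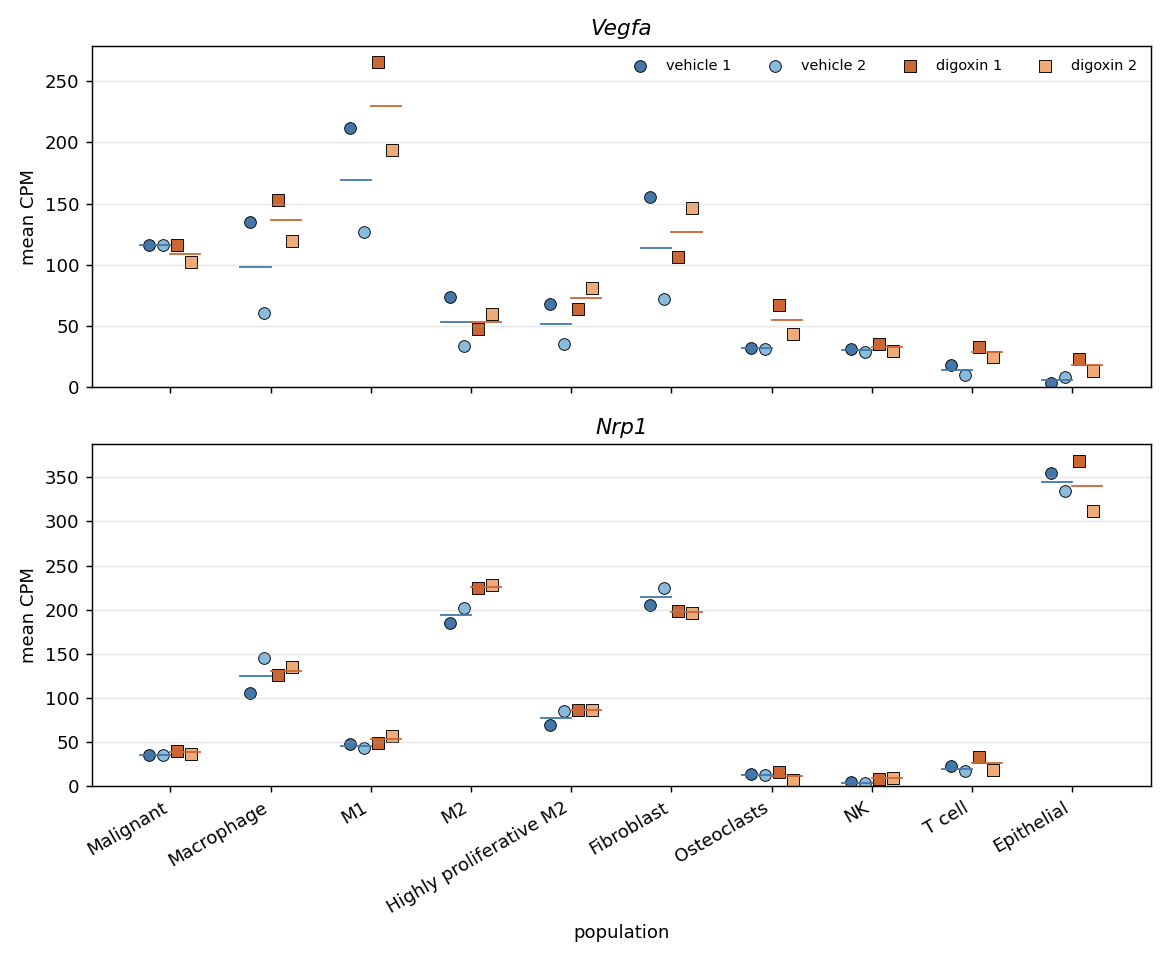
Points give the mean CPM of Vegfa (top) and Nrp1 (bottom) in each of the 4 mice by population, and short lines the group means. Vegfa is higher in M1 than in M2 macrophages in every mouse, Nrp1 is higher in M2, and vehicle 2 is the lowest mouse for Vegfa in each macrophage sub-cluster.

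The levels of the angiopoietin pair were highest in the same Epithelial-named cells. Angpt2, on chr8:18690263-18741562, stood there at 88.3, 104, 111 and 89.6 CPM, and Tek, on chr4:94739289-94874976, at 89.8, 91.0, 85.0 and 83.9. Angpt2 had a second site in the cells named Osteoclasts, at 28.3, 29.2, 28.0 and 35.5 CPM, which had 5 of 5 osteoclast markers and a summed endothelial marker level of 5.32 to 11.3 CPM. No mouse overlapped between either site and the types below it, of which malignant cells had 5.71 to 6.78. Tek was lower everywhere else. Fibroblasts had 3.29 to 10.8 CPM, and in 6 types no UMI was counted. In T cells that was 0 of 183, 110, 155 and 131 cells, which allows shares of cells with a UMI of up to 1.64%, 2.73%, 1.94% and 2.29%, by 3 cells and for counting error only. The Epithelial-named cells held 75.1% to 89.6% of Tek UMIs but 8.4% to 13.9% of Angpt2 UMIs, of which the more numerous and deeper malignant cells held 76.9% to 82.2%. Angpt1, the other main Tek ligand, was a fibroblast transcript at 26.1 to 44.8 CPM and lay at 2.07 to 5.55 in the Epithelial-named cells.

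Angptl4, on chr17:33773750-33781830, was highest in fibroblasts, at 243, 191, 174 and 192 CPM. The Epithelial-named cells came second at 94.3, 116, 48.2 and 54.5, and malignant cells followed at 41.9, 31.4, 34.9 and 42.9. None of these 3 ranges overlapped, and every other type was at or below 16.4. Fibroblasts numbered 31 to 78 cells in a mouse, and malignant cells held 93.6% to 96.4% of Angptl4 UMIs.

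**Figure D3:**
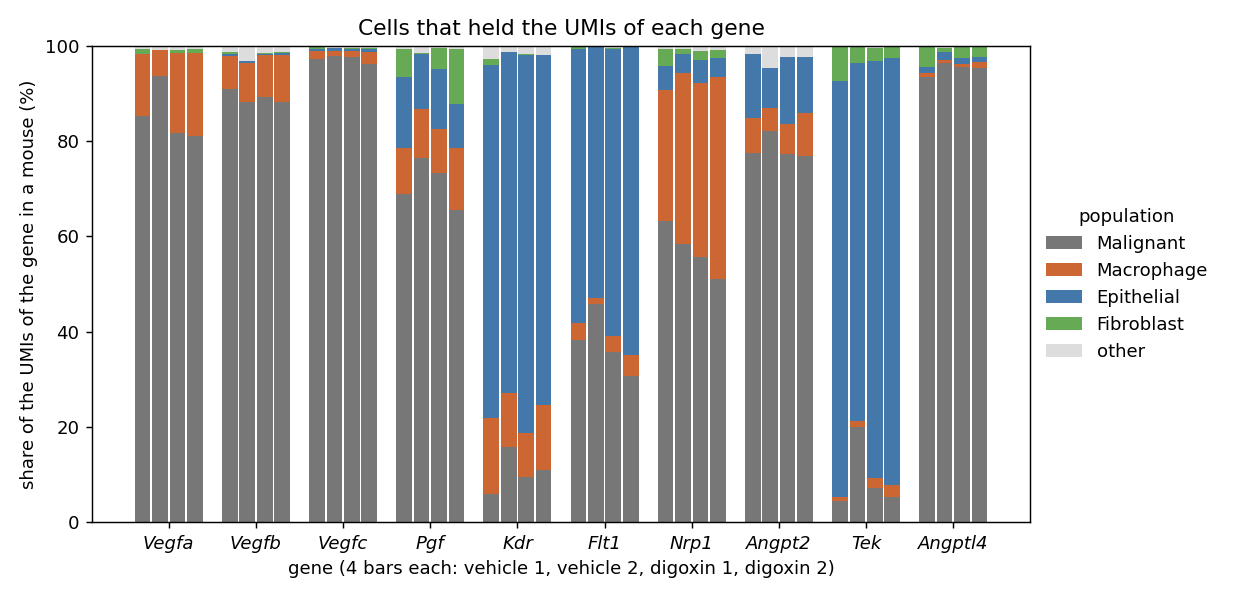
Stacked bars give, for each gene and mouse, the percentage of its UMIs that lay in malignant cells, macrophages, Epithelial-named cells, fibroblasts and other cells. Malignant cells hold most of the UMIs of Vegfa, Vegfb, Vegfc, Pgf, Nrp1, Angpt2 and Angptl4, and Epithelial-named cells most of those of Kdr, Flt1 and Tek.

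For Vegfa, Kdr, Angpt2 and Angptl4, the 3 genes most like each were found by Pearson's r of log2(mean CPM + 1) over 11 populations among 9501 genes. The populations share their libraries. Vegfa was closest to the glycolytic hexokinase Hk2 (r = 0.93), Colec12 (0.92) and Por (0.90). Kdr was closest to the endothelial cadherin Cdh5 (0.93), Myzap (0.93) and the Notch ligand Dll4 (0.92). Angpt2 was closest to Arhgef7 (0.92), Pkn3 (0.90) and Sh3glb2 (0.90), and Angptl4 to Adgra2 (0.98), Fkbp10 (0.98) and Ecm2 (0.97).

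To ask what digoxin did to these genes, the mice were compared by limma in 12 populations: malignant cells, all non-malignant cells, 7 types and 3 macrophage sub-clusters. Differences are on the log2(mean CPM + 1) scale, digoxin minus vehicle, and p-values are adjusted over all genes of a fit at a threshold of 0.05. Angptl4 in the Epithelial-named cells passed, and no other member passed in any population. Nothing in the labels says that the 2 mice of a group were handled apart, so the p-values cover at most the spread between these mice. For each gene limma moderated that spread towards the spread of genes at a similar level, by an empirical Bayes trend.

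In the Epithelial-named cells Angptl4 had a mean CPM of 94.3 and 116 with vehicle and of 48.2 and 54.5 with digoxin. Both digoxin mice were low and the groups were apart, at a mean of 105 ± 15.3 (SD, n = 2) under vehicle against 51.4 ± 4.44 (SD, n = 2) under digoxin. The level fell by 1.01 on the log2 scale (SE 0.185, limma adjusted p = 0.0484), which is 2.02-fold lower. The values rest on 211, 235, 157 and 141 UMIs of Angptl4, and summed over cells they were 79.0, 109, 64.6 and 61.4 CPM. On summed CPM the groups stayed apart, but the difference was -0.55 and limma's adjusted p 0.999. By edgeR it was -0.59 with an adjusted p of 0.928.

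Among these cells, 22.5% and 20.4% with vehicle and 34.9% and 33.7% with digoxin carried UMIs of at least 3 of 7 macrophage markers, whose summed level was 373 and 759 against 924 and 1084 CPM. Mast cell markers, 5 of 5 at 20 CPM or more on average, summed to 59.4 and 260 against 4709 and 5304 CPM. UMIs of at least 3 of these markers, with Kit not counted, were found in 0, 1, 5 and 6 cells, and those cells had 0 Angptl4 UMIs. Without the cells with macrophage markers the Angptl4 difference was -1.13 (limma adjusted p = 0.0988), and without those with mast markers -0.93 (adjusted p = 0.217). In the cells with a UMI of Cdh5 or Pecam1, 88.4% to 92.9% of the type, Angptl4 stood at 105, 123, 52.1 and 60.8 CPM, a difference of -1.0 (adjusted p = 0.128). These cells held 211, 233, 155 and 139 of the 211, 235, 157 and 141 Angptl4 UMIs of the type. Their difference could therefore hardly depart from that of the whole type. In 13 of 17 alternative fits, listed at the end, the adjusted p of Angptl4 was above 0.05.

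Of the 10 members in the Epithelial-named cells, 1 passed, against 0.467% of 10272 genes (48 genes, 46 of them higher). Limma passed 3 of 10219 genes without the cells with mast markers, and 7 of 10054 in the Cdh5 or Pecam1 cells. In the whole type, non-overlapping groups were found for 5 members, against 34.1% of genes. Flt1 was one, with 549 and 604 against 641 and 672 CPM. Its difference was 0.19 (SE 0.112, limma adjusted p = 0.943), and on summed UMIs its groups overlapped. Tek was another, with 89.8 and 91.0 against 85.0 and 83.9 CPM and a difference of -0.10 (SE 0.160, adjusted p = 0.989). Vegfb and Vegfa, with means under 20 CPM, were the remaining ones. The values of Vegfa were 3.51 and 8.70 against 23.3 and 13 CPM, and it is named here after they were seen. They rest on 16, 11, 44 and 20 UMIs, of which 10, 3, 36 and 16 lay in the cells with macrophage markers, and the difference of 1.48 (SE 0.480) had a limma adjusted p of 0.494. With vehicle replicate 1 alone against digoxin, the Vegfa difference was 2.03. Kdr, Nrp1, Angpt2, Vegfc and Pgf overlapped between groups. With vehicle replicate 2 alone against digoxin, the Pgf difference was -1.06.

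**Figure D4:**
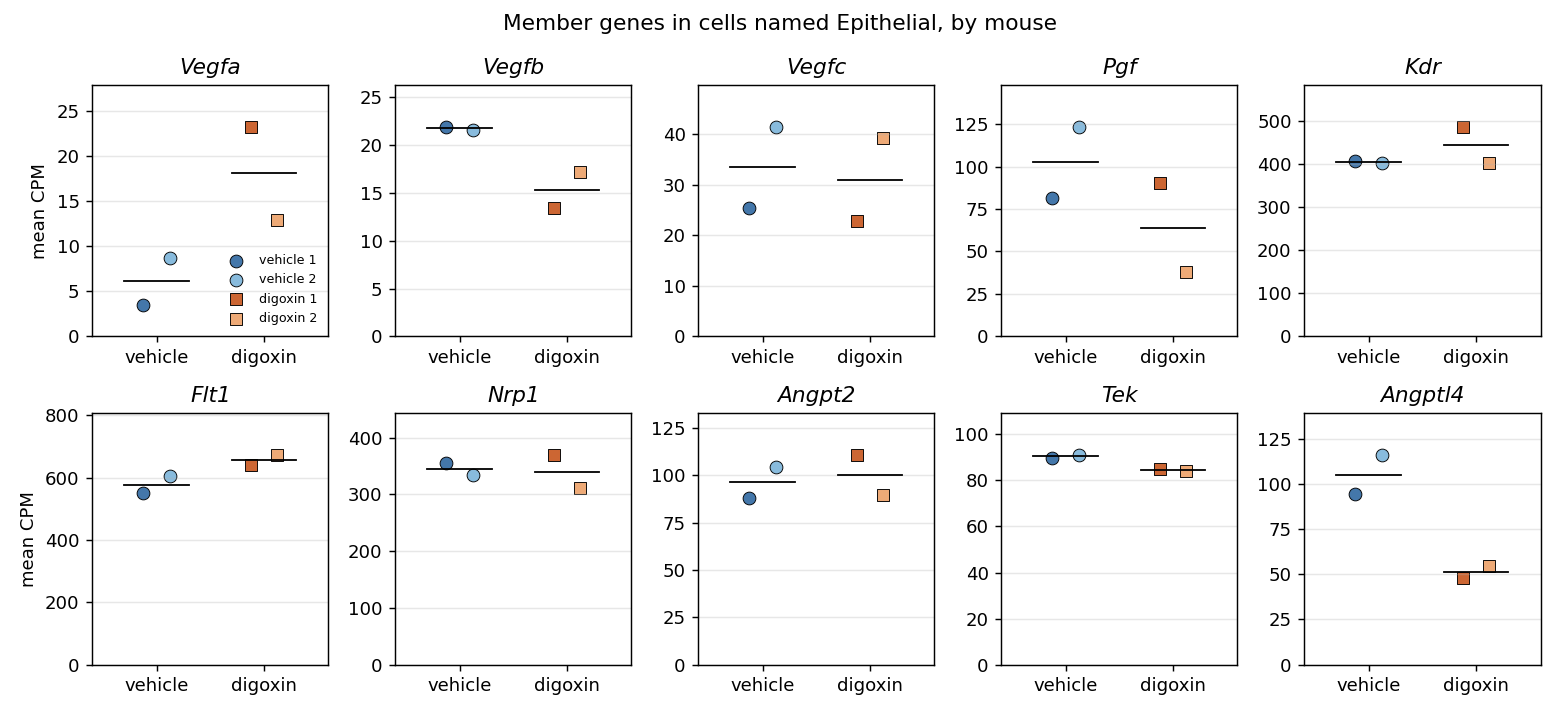
Each panel plots the mean CPM of 1 gene in the Epithelial-named cells of the 4 mice, with a line at each group mean and the axis from 0. Angptl4 lies at 94.3 and 116 with vehicle and at 48.2 and 54.5 with digoxin, while Kdr, Nrp1 and Angpt2 overlap.

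In malignant cells 0 of 10 members passed by limma, against 0% of 17138 genes, and 4 had groups that did not overlap, against 29.3% of genes. The largest of the 4 means belonged to Vegfa, at 116 ± 0.0484 with vehicle and 109 ± 9.55 with digoxin (SD, n = 2). Its difference was -0.09 (SE 0.0823, limma adjusted p = 1.00), and digoxin replicate 1, at 115.9 CPM, lay just under the vehicle mice at 116.0 and 116.1. Flt1, below 20 CPM, is not described further, and its groups overlapped on summed UMIs. Vegfb had 35.6 and 34.2 against 37.3 and 36.2 CPM, a difference of 0.07 (SE 0.0736, adjusted p = 1.00). Nrp1 had 35.26 and 35.28 against 39.8 and 35.9 CPM, a difference of 0.10 (SE 0.0826, adjusted p = 1.00). On summed UMIs the groups of Vegfa, Vegfb and Nrp1 overlapped. Angptl4, which passed in the Epithelial-named cells, overlapped here on both scales. Without the malignant cells with at least 3 macrophage markers, 2115 and 3007 against 1961 and 1491 cells were left. Limma then passed 0 of 15427 genes, but the main fit passed 0 of 17138 too. That count therefore cannot show whether the differences of the members changed.

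Over all non-malignant cells 0 of 10 members passed, against 0% of 14879 genes, and 3 did not overlap, against 33% of genes. They were Kdr, Tek and Angptl4, each below 20 CPM on average and each lower with digoxin. On summed UMIs the groups of Kdr and Angptl4 overlapped and those of Tek stayed apart. Angptl4 had 11.7 and 8.22 against 5.33 and 7.74 CPM. Fibroblasts, its leading type, numbered 78 and 31 against 45 and 49 cells, and the part of that mixture was not tested. The difference of the digoxin effect between non-malignant and malignant cells passed for 0 of 10 members, against 0% of 14445 genes. For Angptl4 it was -0.63 (SE 0.118, limma adjusted p = 0.970) and for Vegfa 0.67 (SE 0.332, adjusted p = 0.970). With vehicle replicate 2 as the only vehicle mouse, the Vegfa value was 1.21.

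Macrophages gave 0 of 9 tested members past the threshold, against 0% of 13734 genes, and 0 that did not overlap, against 30.9%. Vegfa had 135 and 60.8 against 153 and 120 CPM, so that vehicle replicate 1 lay between the digoxin mice. When vehicle replicate 1 was left out, only the low vehicle replicate 2 stood against digoxin, and the difference was 1.14. The M1 sub-cluster gave 0 of 9 against 0% of 12182 genes, and 2 without overlap against 39.3%. One was Nrp1, with 47.5 and 42.9 against 49.1 and 56.5 CPM and a difference of 0.22 (SE 0.122, adjusted p = 0.722). The other was Kdr, below 20 CPM, with 9.94 and 11 against 4.48 and 7.26 CPM. In M2 cells 0 of 9 passed, against 0% of 12545 genes, and 1 did not overlap, against 26.6%. That was again Nrp1, with 185 and 202 against 225 and 227 CPM and a difference of 0.22 (SE 0.132, adjusted p = 1.00). Highly proliferative M2 cells gave 0 of 8 against 0% of 11459 genes, and 2 without overlap against 30.1%. Nrp1 had 69.5 and 84.7 against 85.8 and 86.4 CPM there, a difference of 0.16 (SE 0.128, adjusted p = 1.00), and Angpt2, below 20 CPM, was the other. Nrp1 was thus higher in both digoxin mice in each sub-cluster, by less than the test could tell from the spread, while in macrophages as a whole its groups overlapped. Vegfa in the highly proliferative M2 cells overlapped too, with a difference of 1.01 when vehicle replicate 2 alone stood against digoxin.

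Fibroblasts gave 0 of 6 tested members past the threshold, against 0% of 9292 genes, and 3 without overlap, against 29.5%. Pgf had 37.9 and 7.88 against 50.2 and 73.2 CPM and a difference of 1.73 (SE 0.606, limma adjusted p = 0.999). The low vehicle replicate 2 had 5 Pgf UMIs in 31 cells, and with this mouse alone against digoxin the difference was 2.80. Vegfb had 18.8 and 36.8 against 18.6 and 14.9 CPM, a difference of -0.63 (SE 0.386, adjusted p = 0.999). Nrp1 had 205 and 224 against 199 and 196 CPM, a difference of -0.12 (SE 0.200, adjusted p = 0.999) that turned to between 0.0049 and 0.0615 in fits on summed UMIs. Macrophage markers in fibroblasts summed to 395, 128, 628 and 572 CPM, and their part in these differences was not tested.

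In T cells 0 of 3 tested members passed, against 0% of 8930 genes, and 1 did not overlap, against 33.3%. Vegfa had 18.4 and 9.99 against 32.8 and 24.9 CPM, with UMIs in 17, 5, 28 and 18 cells. The difference was 1.02 (SE 0.347, limma adjusted p = 0.979), and with vehicle replicate 2 alone against digoxin it was 1.43. Macrophage markers in T cells summed to 897 and 2930 against 1669 and 1923 CPM. Without the T cells with at least 3 of these markers, 155 and 80 against 112 and 87 cells were left. Limma then passed 0 of 7276 genes, but the main fit passed 0 of 8930 too. That count therefore cannot show whether the Vegfa difference changed, and the part of macrophage RNA in that difference was not tested. In the Osteoclast-named cells the markers summed to 1823 and 2740 against 2859 and 1823 CPM, and their part there was not tested. Osteoclast-named cells gave 0 of 5 against 0.0128% of 7803 genes, and 2 without overlap against 37.4%. Vegfa had 32.0 and 31.5 against 67.2 and 43.4 CPM, a difference of 0.75 (SE 0.249, adjusted p = 0.781). Vegfb had 92.6 and 73.1 against 59.3 and 65.5 CPM, a difference of -0.40 (SE 0.193, adjusted p = 0.785). NK cells gave 0 of 5 against 0.0765% of 9147 genes, and 1 without overlap, Nrp1 at under 20 CPM, against 36%. Microglia-named cells gave 0 of 3 against 0% of 5818 genes, and 0 without overlap against 32.9%. B cells, dendritic cells and neutrophils had under 20 cells in at least 1 mouse and were not tested. Among neutrophils Vegfa was 295 and 363 CPM on 39 and 17 UMIs with vehicle, and 112 and 110 on 56 and 38 UMIs with digoxin. The summed neutrophil markers given above differed widely between these mice, and no comparison is drawn.

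**Figure D5:**
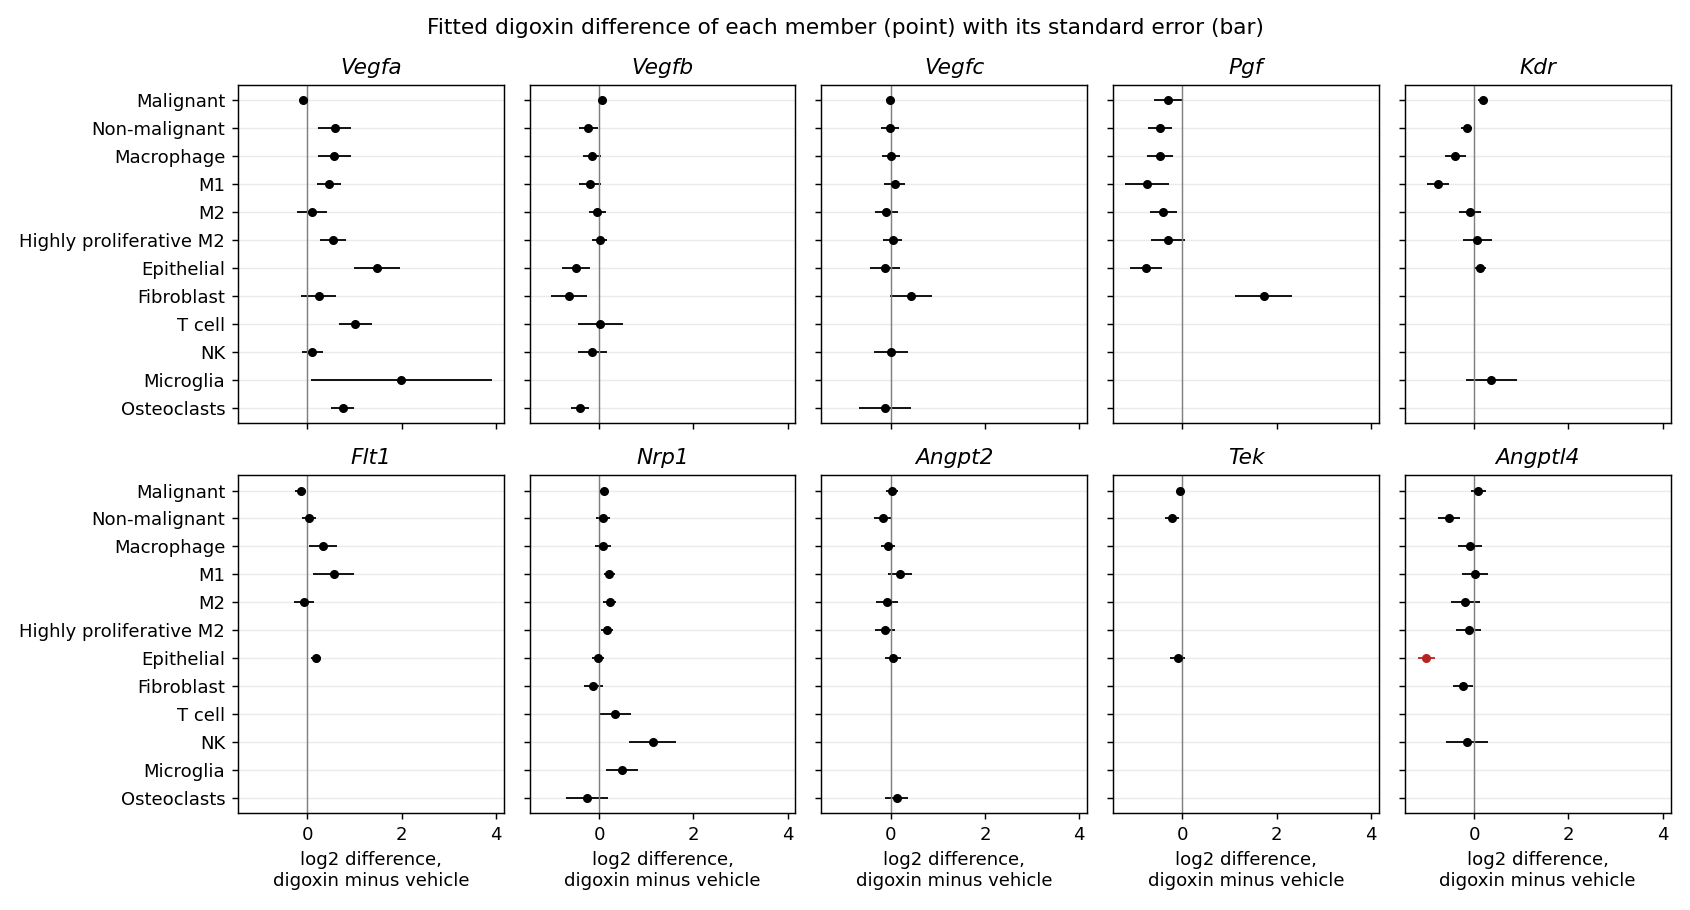
Points give the fitted log2 difference, digoxin minus vehicle, of each gene in each population where it was tested, and bars its standard error. The red point, Angptl4 in the Epithelial-named cells at -1.01, is the value past the threshold, and the vertical line marks no difference.

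A list of 71 other genes of the pathway was counted in the same fits. No gene of it passed by limma in any of the 12 populations, with 16 to 69 genes tested. In malignant cells 69 genes were tested, with a median difference of -0.06 against -0.01 over all genes, and 33.3% had groups without overlap, against 29.3% of all genes. In the Epithelial-named cells 60 were tested, with a median of -0.06 against 0.00 over all genes, and 40.0% were without overlap, against 34.1% of all genes. Of its ligands and receptors, Vegfd stood at 37.2 to 46.8 CPM in malignant cells and 46.4 to 86.0 in fibroblasts. Tie1, the partner of Tek, stood at 190 to 271 CPM in the Epithelial-named cells and Flt4, the Vegfc receptor, at 44.6 to 94.4. Nrp2, which also binds Vegfc, was at 97.7 to 150 CPM there and at 91.7 to 111 in macrophages. Among the hypoxia factors, Hif1a had 118, 121, 123 and 117 CPM in malignant cells and overlapped between groups. Egln1, a prolyl hydroxylase that marks HIF proteins for degradation, is named after its values were seen, since DESeq2 on summed UMIs passed it in malignant cells, all non-malignant cells, macrophages and M1 cells. Its malignant values were 17.2 and 22.3 against 28.3 and 41.4 CPM, a limma difference of 0.78 (adjusted p = 1.00) and a DESeq2 one of 0.96 (adjusted p = 0.00350). In macrophages they were 37.7 and 29.1 against 51.5 and 56.8 CPM, a limma difference of 0.69 (adjusted p = 1.00) and a DESeq2 one of 0.70 (adjusted p = 0.0181). Both digoxin mice thus lay above both vehicle mice in each of these. Over all genes DESeq2 passed 45 of 17138 in malignant cells and 30 of 14879 in all non-malignant cells. It passed 20 of 13734 in macrophages and 42 of 12182 in M1 cells. The Egln1 call depended on the tool and on the mice, since limma passed Egln1 only in fits with a lone mouse in a group. These were macrophages, M1 cells and highly proliferative M2 cells without vehicle replicate 1. M1 cells without digoxin replicate 1 and T cells without vehicle replicate 2 were the others.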

How the data were processed

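The authors deposited, per the labels, values as counts tables, but the tables hold the natural log (ln) of 1 plus the UMIs per 10000 UMIs of the cell. The deposited UMI count of each cell turned 100% of the values back into whole counts within 0.01. Cell Ranger 3.0.2, Seurat 3.0.2 and mm10 are named in the submitters' processing notes, and how malignant cells were told apart is not given in the sources used here. Cell types are the deposited ones, with the library numbered 3 in its cell names mapped to vehicle replicate 2 by the deposited cell table. Mean CPM per mouse and population was fitted as log2(mean CPM + 1) with limma 3.58.1, an empirical Bayes trend and Benjamini-Hochberg adjustment, for genes kept by filterByExpr of edgeR 4.0.16, in populations with at least 20 cells in every mouse. Fold changes on this scale understate low genes. The compartment difference was fitted with the mouse as a block.

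A difference is printed for members with a mean of at least 20 CPM and groups that do not overlap, at most 3 with the smallest p per population, and for any past 0.05; exceptions are stated. The genes, lists and tests were chosen with earlier results of these data known. Scrublet in scanpy 1.11.5 (expected share 0.06) marked 1381 of 31611 cells (4.37%) as doublets, which were kept. Intervals and limits cover counting error only. The limma fit was tested on simulated summed counts for malignant cells and the Epithelial type. Each gene was given the same spread between mice, which was not estimated from these data, and genes with low expected counts were left unchanged. That test fitted CPM of the sums, and the mean CPM over cells of the main fit was not simulated. Gene positions are those of GENCODE M21 on GRCm38. The number of columns of no sample was 0.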

Additional observations from a re-analysis of the deposited data

Results flagged for a closer look

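In 8 pairs of populations the groups did not overlap in either, and digoxin was the higher group in one population and the lower group in the other. The difference between the populations was not tested for these pairs, and groups that do not overlap were found for 26.6% to 39.3% of all genes in a population. Vegfa was lower with digoxin in malignant cells and higher in T cells (log2 difference in malignant cells minus that in T cells, -1.11) and in the Osteoclasts type (-0.84). Vegfb was higher in malignant cells and lower in fibroblasts (0.70) and in the Osteoclasts type (0.47). Nrp1 was lower in fibroblasts and higher in malignant cells (0.22), M1 (0.34), M2 (0.34) and highly proliferative M2 macrophages (0.28), each minus the value in fibroblasts. On UMIs summed over cells 0 of the 8 pairs held, since the groups of Vegfa and Vegfb in malignant cells and of Nrp1 in fibroblasts then overlapped, and the fibroblast direction of Nrp1 turned.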

How the results depend on the processing

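Of 210 alternative values for the 15 named differences, 206 kept their direction. The 4 that turned were Nrp1 in fibroblasts on recovered summed UMIs: edgeR 0.0575, DESeq2 0.0615, limma-voom 0.0542 and CPM of summed UMIs 0.0049. Angptl4 in the Epithelial type stayed lower in each of its alternatives (-1.16 to -0.55) but passed only with a pseudocount of 10, a replicate block (adjusted p = 0.0272) and without either vehicle mouse. Members past the threshold there were thus 0, in place of 1, with edgeR, DESeq2, limma-voom, CPM of summed UMIs, no filter on low genes, without doublets, without cells over 20% mitochondrial UMIs, without cells with mast, pericyte or macrophage markers, and in Cdh5 or Pecam1 cells only. Leaving out any single mouse changed the members past the threshold there. In macrophages, highly proliferative M2 cells, fibroblasts, T cells and the compartment difference, a member passed only without vehicle replicate 1. Without that mouse, calls over all genes also rose in each of these fits.

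For the pathway genes, with 0 in every main fit, DESeq2 gave 1 in malignant cells, 1 in all non-malignant cells, 1 in macrophages and 2 in M1 cells. Over all genes it passed 45 of 17138, 30 of 14879, 20 of 13734 and 42 of 12182 in these populations, in that order. Without single mice the counts were 0 to 2 in macrophages and the Microglia type, 0 to 3 in M1 and highly proliferative M2 cells, 0 to 14 in the Epithelial type, 0 to 7 in fibroblasts, 0 to 1 in T cells and 0 to 6 for the compartment difference, and the highest came without vehicle replicate 1, in T cells also without vehicle replicate 2. The replicate block gave 1 pathway gene, Klf2, in T cells, and changed no other call of members or pathway genes. The cause of these changes was not tested. Same-numbered mice deviated with a correlation of -0.36 in malignant cells and -0.16 to 0.06 elsewhere, and share only a number. Over all genes the Epithelial count of 48 ranged from 0 with edgeR to 85 with the block, and was 12 to 344 without single mice. Leaving out cells with pericyte markers, with macrophage markers in the Epithelial type, or named Unknown was chosen after the data were seen. Leave-one-out fits with a lone mouse in a group assume that it varies like the other group. Without vehicle replicate 1, such a fit set a host that was male by Xist and Ddx3y against female hosts. The Angptl4 values of the Epithelial type rest on 744 UMIs in all.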
